A study of Arabidopsis thaliana with 25 samples.

Results

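The 100 genes described here made up their largest share of nuclear messenger RNA at 6 h of light, in cotyledons of dark-grown Arabidopsis thaliana seedlings that were being moved into continuous light. They were chosen from these data. For each nuclear entry with a single gene identifier, the count was divided by the library's sum over such entries and scaled to 1000000 (counts per 1000000, CPM), and the mean was taken over the 5 libraries of each group. Of 37282 entries, 12305 reached 10 CPM in at least 1 group. Among those, the 100 with the highest log2 ratio of the 6 h mean to the highest of the dark, 1 h and 24 h means, with 1 CPM added to each, were kept. This ratio is called the peak value below. Because it uses every library of D, 1h, 6h and 24h, the height of these genes at 6 h over dark, 1 h and 24 h is a description and carries no test.

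Wild-type seedlings grew for 5 days on half-strength Murashige and Skoog medium, either in darkness or in long days. Dark-grown seedlings were collected directly (group D) or after 1, 6 or 24 h of continuous light (1h, 6h and 24h), and group L grew in long days throughout. Cotyledons were fixed in acetone and dissected, and Drosophila cells were added before RNA extraction, so that fly counts can serve as an external scale. The 5 groups held 5 libraries each, labelled as biological replicates 1 to 5, sequenced as stranded paired ends, with 17901840 to 24085995 counts per library.

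Light given to an etiolated seedling opens the cotyledons, turns etioplasts into chloroplasts and restarts cell division and expansion. Early in this change the plant makes proteins that handle excess excitation, among them the early light-inducible proteins, and flavonoids that screen light. New walls, membranes and cuticle need secreted proteins, which fold in the endoplasmic reticulum (ER) with the help of chaperones such as BiP, calnexin and calreticulin.

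A run of 5 neighbouring genes carried the most regular pattern of position in the set. AT4G15660, AT4G15670, AT4G15680, AT4G15690 and AT4G15700 lie on the plus strand of chromosome 4 between bases 8925571 and 8938124 of the RefSeq assembly TAIR10.1, and all 5 are members. RefSeq annotates each as a thioredoxin superfamily protein encoded by a single exon with a coding length of 309 bases. Their coding sequences are 88.3% to 93.2% identical to each other, so reads could be divided between them by the counting and their separate levels are uncertain. The sixth member of that annotation, AT3G62930 on chromosome 3, is 61.2% to 62.8% identical to them. The longest word common to the 250 bases before the start of all 5 genes has 11 bases. It is shown in capitals in windows of 60 bases, because among the 12305 genes no other held it on either strand of that stretch.
AT4G15660 chr4:8925502-8925561: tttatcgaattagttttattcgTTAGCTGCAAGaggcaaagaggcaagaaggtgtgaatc
AT4G15670 chr4:8928859-8928918: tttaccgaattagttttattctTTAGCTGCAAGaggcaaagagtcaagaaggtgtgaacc
AT4G15680 chr4:8931443-8931502: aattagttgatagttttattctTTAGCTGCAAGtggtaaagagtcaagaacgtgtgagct
AT4G15690 chr4:8934046-8934105: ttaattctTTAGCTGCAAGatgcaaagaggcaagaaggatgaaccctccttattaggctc
AT4G15700 chr4:8937108-8937167: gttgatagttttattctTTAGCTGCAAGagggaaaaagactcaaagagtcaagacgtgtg

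All 5 windows are read from the plus strand of TAIR10.1. The word began 47 bases before the annotated start of AT4G15660, 150 bases before AT4G15670, 152 before AT4G15680, 242 before AT4G15690 and 233 before AT4G15700. It describes the similarity of the copies and is not a mapped binding site.

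A second set of windows shows the only 3 members that held any of 3 searched words resembling E2F binding sites. All 3 are genes of DNA replication, and other forms of the site were not searched. The replication members PCNA1 and PRL hold none of these words in the 250 bases before their starts. MCM3 encodes a subunit of the replicative helicase, DUT1 a dUTP pyrophosphatase that keeps uracil out of DNA, and AT3G52630 (synonym RPA3A) a subunit of the single-strand binding complex. Capitals mark TTTCCCGC, TTCCCGCC and TTGGCGCC on either strand.
AT3G52630 chr3:19513877-19513936, plus strand: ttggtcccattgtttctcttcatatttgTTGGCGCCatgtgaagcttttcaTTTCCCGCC
MCM3 chr5:18773731-18773790, minus strand: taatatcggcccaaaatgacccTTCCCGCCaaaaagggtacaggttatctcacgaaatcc
DUT1 chr3:17289007-17289066, minus strand: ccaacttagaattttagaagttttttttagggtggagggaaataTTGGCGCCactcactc

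Searched on both strands of the 250 bases before each gene start, TTTCCCGC occurred in 1 of 100 members and in 0.504% of the 12305 genes. TTCCCGCC occurred in 2 members and in 0.479% of the genes, and TTGGCGCC in 2 members and in 0.171%. The first of these words overlaps the second. The G-box CACGTG stood before 6 members and before 7.9% of the genes, its core ACGT before 49 members and 44.0%, and TATAAA before 49 members and 45.4%. TGTCTC stood before 19 members and 10.2% of the genes, AAAATATC before 13 members and 6.32%, GATAAG before 18 members and 13.3%, TGGGCC before 15 members and 18.7%, TGACG before 14 members and 19.1%, and AAACCCTA before 8 members and 3.5%. These shares are descriptions of letters in a fixed window.

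The members came from all 5 chromosomes, with 28, 12, 18, 21 and 21 on chromosomes 1 to 5. There were 95 protein-coding genes and 5 of other kinds. The annotated transcripts had a median length of 1218.5 bases, against 1651 bases for the 12305 genes, and a median of 3 exons against 5. A single exon was annotated for 28% of the members and for 12.4% of the genes. In all, 8 members lay within 10000 bases of another member: the run of 5, AT4G15630, which lies 6695 bases before it and encodes a UPF0497 membrane protein, and the overlapping pair PRMT11 and AT4G29520.

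Several libraries stood apart among the members, and the results that rest on them are given with and without them. In the 1h group, replicate 4 was the highest library for 63 of 100 members, against 28.9% of the 12305 genes. In the 24h group, replicate 5 was the highest for 54 members, against 39.1% of the genes. In L, replicates 4 and 5 both exceeded 2 times the highest of replicates 1 to 3 for 13 members, and all of replicates 1 to 3 exceeded 2 times the higher of replicates 4 and 5 for 12 members. Over the 12305 genes those shares were 2.1% and 4.57%. Plastid-encoded counts were also a larger share of plant counts in replicates 3 to 5 than in replicates 1 and 2 in every group, with medians of 8.43% and 3.39% in D, and their part in the results was not tested.

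The members' summed share of nuclear counts was 0.389% ± 0.0796 in D, 0.601% ± 0.18 in 1h, 2.83% ± 0.351 in 6h, 1.08% ± 0.112 in 24h and 0.894% ± 0.258 in L (mean ± SD, n = 5 each). The 5 libraries of 6h held 2.47% to 3.24%, above every library of the other groups, the highest of which held 1.31%. Mean levels at 6 h ran from 7.91 to 5180 CPM with a median of 54.0 CPM, and the 5 most abundant members made up 61.5% of the members' sum. For 68 members all 5 libraries of 6h exceeded all 15 of D, 1h and 24h, which held for 1.99% of the 12305 genes. Without replicate 4 of 1h and replicate 5 of 24h the count was 82 members, and 3.08% of the genes. Leaving out libraries of 1h and 24h cannot lower such a count, and the members were chosen on these same values. Both counts are therefore descriptions and no check of the peak.

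**Figure D1:**
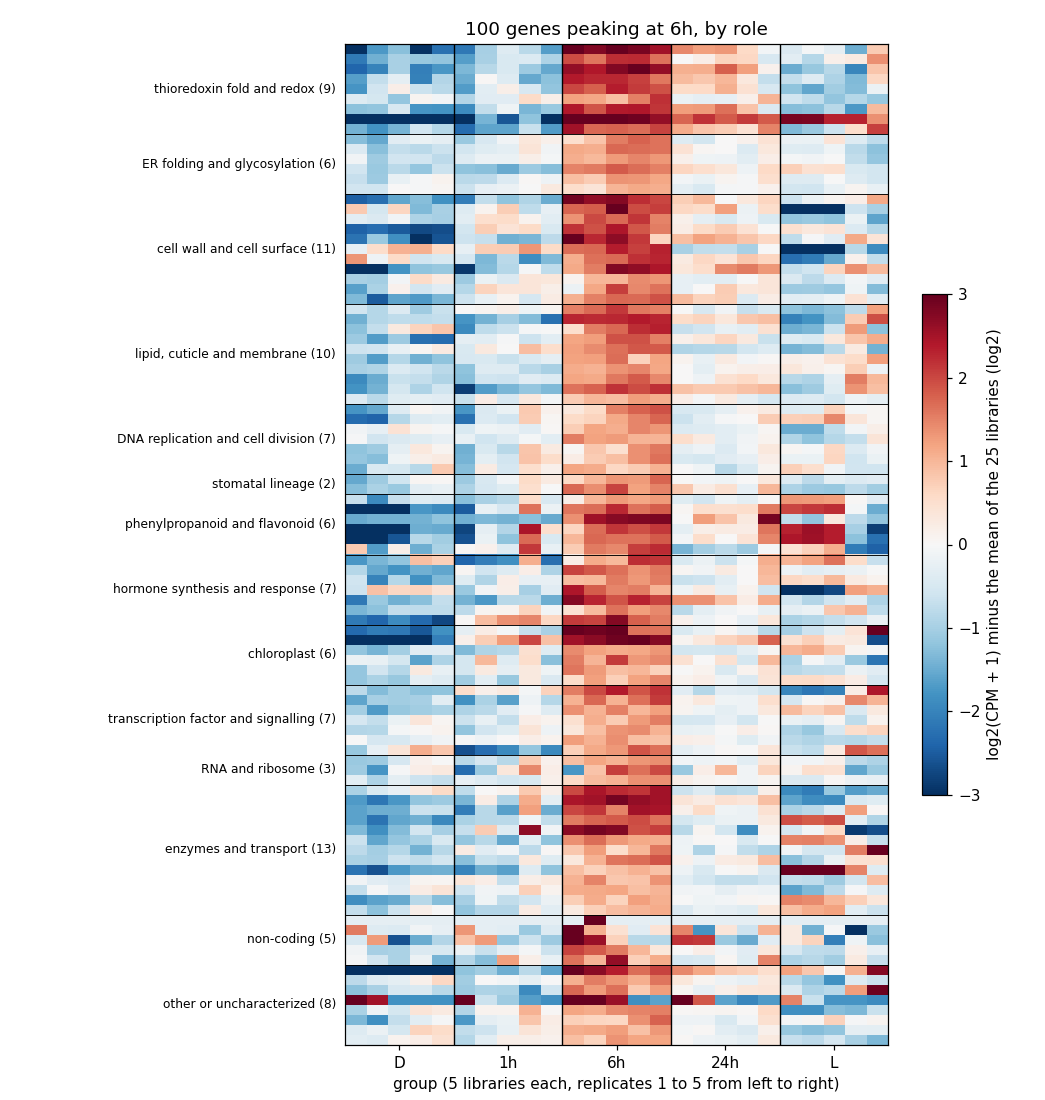
Rows are the 100 members sorted by role, with the number of members in brackets, and columns are the 25 libraries. Colour gives log2(CPM + 1) minus the gene's mean over the 25 libraries. The 6h columns are red across most roles, and some of the non-coding members are red in only some of the 6h libraries. L replicates 1 to 3 differ from 4 and 5 among phenylpropanoid genes.

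The choice was sharpest for few genes. The peak value was 4.28 for the first member and had a median of 1.22, against −0.57 for the 12305 genes. The last members were AOP1 at 1.00, the invertase CINV2 at 0.99 and calreticulin CRT1b at 0.99. The first genes left out were the epidermal gene PDF1 at 0.99, the bHLH factor HBI1 at 0.99 and the ferritin FER3 at 0.99. The group that came closest to 6h was 24h for 68 members, 1h for 23 and D for 9.

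The highest ranked member owes its place to a single library and is no general result. AT1G07487, a snoRNA that lies within AT1G48460 on the same strand, had 91.9 CPM in replicate 2 of 6h and 0 in the other 24 libraries. The snoRNA AT5G07095 had 246, 25.7, 16.3, 9.08 and 15.9 CPM in the 5 libraries of 6h, and its D libraries ran from 8.61 to 36.4 CPM. The non-coding RNA AT5G00590 had 607, 167, 43.9, 14.6 and 14.3 CPM at 6h. These 3 members held over 50% of their summed 6h level in 1 library. The short uncharacterized gene AT1G29418 was high in some replicate numbers alone, with 76.7, 51.4 and 26.8 CPM in replicates 1 to 3 of 6h and 0.304 and 0.534 CPM in 4 and 5.

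Counts that may belong to 6 members stand in entries that join several identifiers and were not assigned to one gene. For AT4G17390 these entries held 158110 counts against 6834 of its own, for Tic20-I 46152 against 4521, and for AT1G29418 16861 against 6927. The values of these members thus rest on the smaller part of such counts. With those entries added, the peak value of the ribosomal protein gene AT4G17390 went from 1.13 to −0.02, that of AT1G29418 from 1.18 to −0.48, and that of Tic20-I, a subunit of the plastid import channel, from 1.18 to 0.44. The other 3, LZF1, PRL and AT5G07095, had 1.67, 0.995 and 1.81. By annotation 22 members overlap a gene on the opposite strand and 6 a gene on the same strand. The libraries were stranded per the labels, but the setting used for counting is not given, so overlapping pairs such as PRMT11 and AT4G29520, both members, may share reads.

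Among the members with light and plastid roles, RbcX1 and ELIP1 changed most. RbcX1, a chaperone that helps to assemble Rubisco, had 126, 92.0, 106, 37.2 and 37.4 CPM in replicates 1 to 5 of 6h. In D it had 1.12 to 2.48 CPM, in 1h 5.3 to 13.5, in 24h 5.95 to 11.8 and in L 5.18, 6.98, 9.07, 15.4 and 117 CPM. Every 6h library stood above all libraries of D, 1h and 24h, and replicate 5 of L was as high as 6h. ELIP1, an early light-inducible protein of the thylakoid, had 5.9, 13.8, 29.7, 53.8 and 146 CPM in D and 681, 1030, 1460, 2450 and 1120 CPM in 1h. At 6h it reached 3500, 4000, 4650, 5420 and 4130 CPM, and at 24h 645, 761, 967, 1080 and 2080 CPM. Its paralog ELIP2 was no member, with means of 1651 CPM in 1h and 2649 CPM in 6h. Of 6 genes on the list for ELIP and photoprotection proteins, ELIP1 was the sole member and 4 had their highest mean at 6h. Of the 12305 genes, 19.6% had their highest mean of D, 1h, 6h and 24h at 6h. This share is the background for such counts of list and family genes below.

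The thioredoxin-fold genes were low in darkness. AT4G15680 had 81.4, 67.4, 82.2, 70.0 and 56.0 CPM in replicates 1 to 5 of 6h. It had 0.137 to 3.14 CPM in D, 1.24 to 6.57 in 1h, 8.33 to 26.0 in 24h and 2.58 to 15.9 in L, and the 6h libraries overlapped none of these. The other 4 genes of the run had 6h means of 34.2, 24.2, 47.7 and 51.9 CPM (AT4G15660, AT4G15670, AT4G15690 and AT4G15700) against 0.561 to 4.62 CPM in D. AT3G62930, outside the run, had 30.4, 23.7, 36.6, 37.2 and 23.9 CPM at 6h and 0.869 to 3.14 CPM in D. MSRB6, a methionine sulfoxide reductase that repairs oxidised methionine, went from 1.51 to 3.42 CPM in D to 991, 831, 728, 693 and 568 CPM at 6h, and stayed at 308 to 411 CPM in 24h.

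The highest peak values included several enzymes and a knottin-like protein. The alpha/beta-hydrolase AT3G05600 had 44.0, 61.3, 52.8, 49.7 and 64.6 CPM at 6h, 4.9 to 16.1 in D, 5.72 to 18.6 in 1h, 5.45 to 11.9 in 24h and 1.7 to 4.26 in L. Its mean was lower in L than in D as a share of plant counts. The cysteine endopeptidase CEP3 had 94.6, 100, 127, 109 and 100 CPM at 6h, against 2.93 to 7.28 in D, 5.82 to 37.3 in 1h and 19.8 to 32.2 in 24h. The purple acid phosphatase PAP8 had 137, 150, 95.3, 195 and 190 CPM at 6h and 7.14, 18.2, 10.2, 79.4 and 11.3 CPM in 1h, where replicate 4 stood alone. The knottin-like gene AT2G43550 had 115, 98.8, 104, 71.4 and 61.4 CPM at 6h and 1.88 to 5.5 in D. The UDP-glycosyltransferase AT4G27560 had 16.9, 19.4, 20.8, 22.5 and 17.8 CPM at 6h against 0.305 to 1.23 in D, and in L 22.3, 20.3, 22.2, 3.9 and 2.24 CPM.

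**Figure D2:**
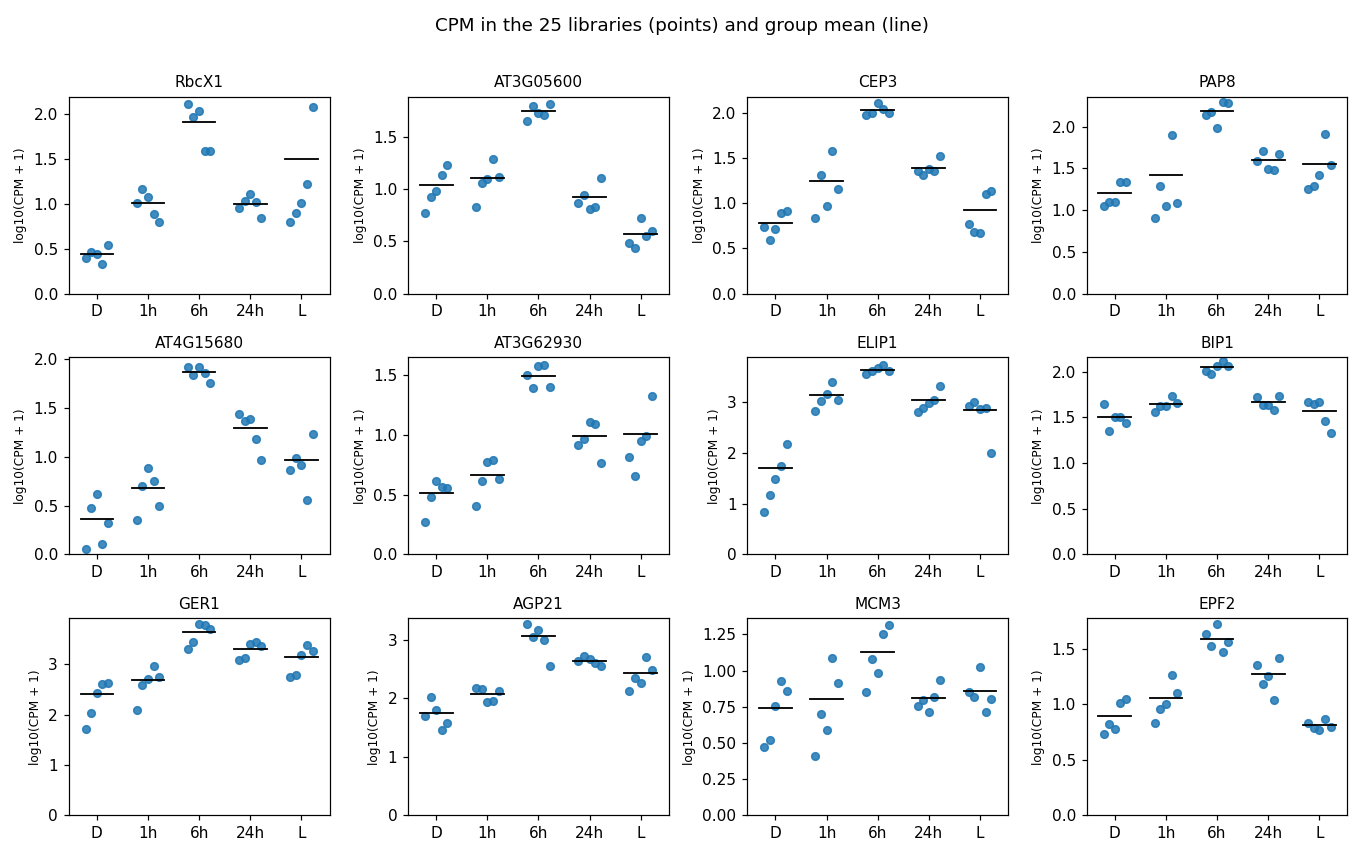
Each panel shows 1 gene, with log10(CPM + 1) on the vertical axis and the 5 groups on the horizontal axis; points are libraries in replicate order and the line is log10 of the group mean plus 1. In RbcX1, AT3G05600, CEP3, PAP8, AT4G15680 and AT3G62930 all 5 points of 6h lie above all points of D, 1h and 24h, whereas in MCM3 the groups overlap.

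Genes of the cell wall and surface formed the most abundant part of the set. The 11 members with this role summed, in group means, to 1049 CPM in D, 1896 in 1h, 9824 in 6h, 3999 in 24h and 2574 in L. GER1, a germin-like protein of the wall, had 2070, 2760, 6490, 6020 and 5100 CPM at 6h, 50.6 to 432 CPM in D and 1200 to 2790 CPM in 24h, so that replicates 1 and 2 of 6h lay within the range of 24h. Arabinogalactan proteins, glycoproteins of the cell surface, gave 3 members among 28 genes of that annotation, 14 of which had their highest mean at 6h. AGP21 had 1870, 1100, 1470, 1000 and 357 CPM at 6h, 27.3 to 104 CPM in D and 349 to 527 CPM in 24h. Replicate 5 of 6h lay within the 24h range. AGP15 went from 185 ± 51.1 CPM in D to 1762 ± 360 at 6h and 819 ± 267 at 24h, and AGP7 from 35.1 ± 22.8 to 177 ± 91.9 and 55.5 ± 19.1 CPM (mean ± SD, n = 5). No member was an expansin, a SAUR protein or a pectin or xyloglucan enzyme by annotation. Of such genes, 3 of 13, 5 of 31 and 19 of 72 had their highest mean at 6h, against 19.6% of the 12305 genes.

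Members that build lipids, membranes and cuticle had the most abundant single gene. AT2G10940, annotated as a lipid-transfer family protein, had 4100, 4560, 5970, 5180 and 6080 CPM at 6h, 382 to 931 in D, 188 to 599 in 1h and 2290 to 2680 in 24h. Its L libraries had 561, 638, 1030, 3370 and 2510 CPM. AT3G16370, a GDSL-type lipase, had a mean of 894 ± 183 CPM at 6h against 155 ± 52.3 in D, and AT1G55260 (synonym LTPG6), a lipid-transfer protein, 338 ± 41.0 against 86.1 ± 14.5 (mean ± SD, n = 5). Lipid-transfer proteins and GDSL lipases gave 3 members among 57 genes, and 23 of the 57 were highest at 6h. Of the 4 genes on the epidermal marker list, PDF1 alone had its highest mean at 6h, and the median peak value of the list was −0.18. The list's summed level was 535 to 957 CPM in the libraries of 6h, 317 to 518 in D, 305 to 572 in 1h, 307 to 371 in 24h and 271 to 368 in L. In group means, PDF1 went from 264 CPM in D to 558 at 6h, whereas ATML1 had 39.2 and 47.6, PDF2 45.1 and 49.6, and KCS6 76.0 and 84.2 CPM. The part of the epidermis in the members' levels was not tested, and in whole cotyledons a larger share of a cell type and more RNA in each of its cells cannot be told apart.

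Several ER chaperones were members. BIP1, an ER chaperone of the Hsp70 family, had 100, 93.0, 115, 130 and 116 CPM at 6h, 21.7 to 43.2 in D, 35.5 to 52.6 in 1h, 37.3 to 53.4 in 24h and 20.3 to 46.0 in L. Its near copy BIP2 had 88.3, 85.7, 134, 130 and 125 CPM at 6h and 16.2 to 29.7 in D, and reads shared between them make the separate levels uncertain. Calnexin CNX1, a lectin-like chaperone, had 86.6, 111, 178, 208 and 189 CPM at 6h and 20.4 to 53.0 in D. For all 3 genes the 6h libraries lay above all others. ATERDJ3B, a co-chaperone of BiP, had 47.6 ± 8.3 CPM at 6h and 16.9 ± 5.6 in D (mean ± SD, n = 5). A list of 20 genes for ER protein folding was written after these members had been seen. Of its 18 genes that reached 10 CPM, 5 were members and 12 had their highest mean at 6h, with a median peak value of 0.63. CRT1a, with means of 30.7 CPM in D and 107 at 6h, was no member, and BZIP60, a factor of the unfolded protein response, was lower at 6h, with 29.3 CPM, than in D, with 43.3.

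Of 14 genes on the cell cycle and DNA replication list that reached 10 CPM, 11 had their highest mean at 6h and 3 were members, with a median peak value of 0.54. PCNA1, the sliding clamp of DNA polymerase, had 10.7, 12.9, 25.6, 31.0 and 34.3 CPM in replicates 1 to 5 of 6h and 1.74, 2.26, 6.23, 8.76 and 7.78 CPM in D. MCM3 had 6.15, 11, 8.64, 16.8 and 19.7 CPM at 6h and 1.97, 2.32, 4.71, 7.53 and 6.29 CPM in D. PRL, which is MCM7, had 17.6 ± 6.89 CPM at 6h and 6.32 ± 3.32 in D (mean ± SD, n = 5). All 3 were higher in replicates 3 to 5 than in replicates 1 and 2 in both D and 6h, or for MCM3 at 6h in 4 and 5, and for MCM3 and PRL the libraries of 6h overlapped those of D. For PRL the lowest library of 6h had 9.33 CPM and the highest of D 9.71 CPM. Among non-members, PCNA2 had means of 11.6 CPM in D and 26.4 at 6h, and CDC2, the main cell cycle kinase, 52.7 and 22.3 CPM.

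Both members of the stomatal lineage list are genes of young precursor cells. EPF2, a secreted peptide that limits entry into the lineage, had 41.8, 32.6, 51.8, 28.7 and 35.1 CPM at 6h, 4.35 to 10.1 in D, 5.77 to 17.2 in 1h, 9.94 to 24.8 in 24h and 4.86 to 6.43 in L. The 6h libraries overlapped none of the others. AT4G31805 (synonym POLAR), whose protein is polarised in dividing precursors, had 19.5 ± 5.89 CPM at 6h, 5.17 ± 2.74 in D and 5.45 ± 0.841 in L (mean ± SD, n = 5). Of the 8 genes of the list that reached 10 CPM, 5 were highest at 6h. Among non-members, SPCH, the factor that starts the lineage, had means of 6.75 CPM in D and 18.2 at 6h, and STOMAGEN, a mesophyll peptide, 190 and 164 CPM.

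Hormone genes among the members act in both the synthesis and the inactivation of gibberellin. GA3OX1 makes active gibberellin and had 5.82, 11.8, 10.7, 26.6 and 25.2 CPM at 6h, 0.778 to 10.1 in D and 0.137 to 11.6 in 1h. Replicate 4 of 1h was the high library, and the 6h values overlapped those of D. GA2OX8 inactivates gibberellin precursors and had 10.3 ± 1.99 CPM at 6h and 0.306 ± 0.354 in D (mean ± SD, n = 5). GASA6, a gibberellin-responsive peptide, had 2710, 1760, 1380, 1470 and 1020 CPM at 6h and 328 to 924 in D. Of the 8 genes on the gibberellin list that reached 10 CPM, these 3 were members and no other gene was highest at 6h. RR16, a type-A response regulator of cytokinin signalling, had 72.8, 53.0, 39.6, 53.3 and 43.9 CPM at 6h and 1.51 to 5.74 in D. AIF1, a helix-loop-helix protein of brassinosteroid signalling, had 61.8, 59.0, 97.8, 49.7 and 41.3 CPM at 6h and 1.21 to 2.98 in D.

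Several phenylpropanoid and flavonoid members differed widely between libraries of a group. FLS1, flavonol synthase, had 84.1, 138, 130, 131 and 151 CPM at 6h and 5.91, 35.7, 17.4, 136 and 30.0 CPM in 1h. 4CL3, a 4-coumarate:CoA ligase, had 35.6, 74.2, 104, 89.7 and 102 CPM at 6h and 2.52, 18.7, 11.9, 127 and 32.2 CPM in 1h. In both genes replicate 4 of 1h lay within or above the range of 6h. AT5MAT, which adds malonyl groups to anthocyanins, had 6.31, 15.5, 17.9, 18.8 and 19.1 CPM at 6h and at most 0.221 CPM in any library of D. At 24h it had 1.8, 5.8, 4.1, 2.48 and 19.9 CPM, so replicate 5 alone was at the level of 6h. PAP1, a MYB activator of anthocyanin genes, had 31.5 ± 12.1 CPM at 6h, 7.06 ± 5.99 in D and 4.78 ± 2.32 in 24h, and CHIL, a chalcone isomerase-like protein, 306 ± 64.8, 12.8 ± 9.97 and 143 ± 64.9 CPM (mean ± SD, n = 5). Of the genes that reached 10 CPM, 9 of 12 on the anthocyanin list and 6 of 8 on the early flavonoid list had their highest mean at 6h, with 2 members on each. TT4, chalcone synthase, was no member, with means of 100.9 CPM in D and 599 at 6h.

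Other pathway lists held few members. Of 18 B-box factor genes that reached 10 CPM, the member LZF1 (BBX22) alone was highest at 6h, with 58.1 CPM against 17.5 in 1h, and the median peak value of the list was −2.04. None of the 18 circadian clock genes was highest at 6h. Of 21 lists, 10 held at least 1 member, and on the other 11 lists 16 of 117 genes were highest at 6h, against 19.6% of the 12305 genes.

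The peak was then examined in libraries that had not been used to choose genes. The rule was applied to replicates 1 and 2 alone, and its 100 genes were compared in replicates 3 to 5, and the reverse. The 2 lists shared 41 genes, all of them members, and shared 63 and 69 genes with the members. Tests were edgeR's quasi-likelihood test on counts scaled to the sum of Drosophila counts, with Benjamini-Hochberg adjustment over all genes and a threshold of 0.05.

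Of the genes chosen in replicates 1 and 2, 96 were tested in replicates 3 to 5. There 62 were higher at 6h than in D, against 8.54% of all genes tested, and 73 were higher than in 1h, against 11.3%. Only 2 were lower at 24h than at 6h, against 0.19%. Of the genes chosen in replicates 3 to 5, 98 were tested in replicates 1 and 2. There 97 were higher than in D against 39.8% of all genes, 48 were higher than in 1h against 3.02%, and 1 was lower at 24h against 0.482%. When the fit held only the groups compared, the count of 48 became 5, and that over all genes went from 639 to 84. In the fits of all 5 groups, both sets passed as higher than D and than 1h in a larger share than all genes, and the later decline was rarely called per fly count. The count of 73 was 41 to 91 when 1 library was left out, with 43 without 1h replicate 3, 41 without 1h replicate 5, 44 without 6h replicate 4 and 48 without 6h replicate 5. Over all genes the count of 2327 was 608 without 1h replicate 5 and 6961 without 6h replicate 3, its range in those fits. A replicate block rests on pairing by number, which was clearer for 6h and 1h and for 24h and 6h than for 6h and D. With the block, the decline was called for 6 genes in each set, against 0.633% and 1.27% of all genes. The count of 62 was then 78, against 16.1% of all genes, and that of 73 was 84, against 34.1%. That of 97 stayed at 97, against 54.9%, and that of 48 was 94, against 11%.

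With TMM scaling, which takes plant counts as the reference and so measures shares, the decline was called for 27 genes chosen in replicates 1 and 2, against 3.46% of all genes, and for 37 genes chosen in replicates 3 to 5, against 3.42%. Per fly count, the median log2 change from 6h to 24h in replicates 3 to 5 was −0.26 for the chosen genes and 0.77 for all genes, and with TMM it was −1.07 and 0.00. For RbcX1 the log2 change from 6h to 24h per fly count was −3.06 ± 0.769 (SE, edgeR adjusted p = 0.00873) in replicates 1 and 2 and −1.36 ± 0.658 (adjusted p = 0.182) in replicates 3 to 5. For AT3G05600 it was −2.32 ± 0.73 (edgeR adjusted p = 0.0742) in replicates 1 and 2 and −1.85 ± 0.545 (adjusted p = 0.0371) in replicates 3 to 5. Both genes are in both lists, and they are named because each passed in 1 of the 2 sets of libraries. The other gene that passed in replicates 3 to 5 was IGMT5, a methyltransferase of indole glucosinolate synthesis. Its log2 change there was −3.41 ± 0.687 (edgeR adjusted p = 0.00267). The values of these genes come from the fits without the replicate block, and with the block more genes passed in each set.

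**Figure D3:**
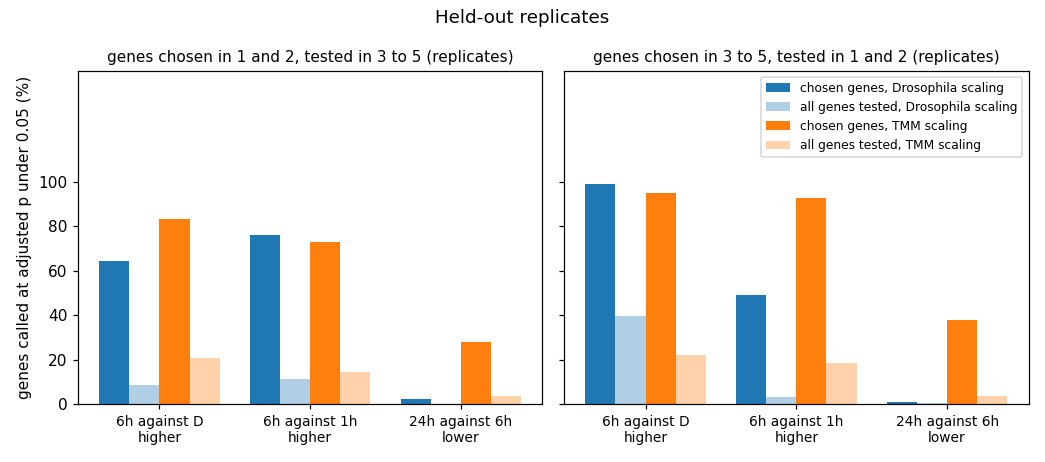
Bars give the percentage of genes called by edgeR at an adjusted p under 0.05 in replicates that were not used to choose them, for 3 comparisons, with Drosophila scaling in blue and TMM scaling in orange. Dark bars are the chosen genes and pale bars all genes tested; the dark bars exceed the pale ones in each comparison, and the bars for 24h against 6h are low with Drosophila scaling.

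Leaving 1 replicate number out of the choice gave a similar description. Of 100 genes chosen without replicate 1, 91 had a higher CPM in the 6h library of replicate 1 than in its D, 1h and 24h libraries, against 16.9% of all genes that passed the level threshold. For replicates 2 to 5 the counts were 95 against 25.2%, 94 against 21%, 85 against 15.2% and 90 against 18.3%. Per fly count the same genes were highest at 6h in 91, 79, 27, 82 and 71 cases, against 34%, 4.57%, 0.838%, 6.71% and 13.3% of all genes. Replicate 3, with 27, was the low one on that scale. Fly counts were 1.995% of all counts in its 6h library and 0.739% to 1.03% in the other libraries of 6h. The part of this difference in the results was not tested.

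The fly scale changes what can be said of the later times, because the plant counts per fly count rose in the course of the experiment. This ratio was 51.1 ± 22.3 in D, 52.6 ± 26.9 in 1h, 93.7 ± 30.3 in 6h, 171 ± 60.4 in 24h and 412 ± 122 in L (mean ± SD, n = 5 each). No source used here gives the amounts of tissue and of fly cells per extraction, so more RNA per cotyledon and more tissue per fly cell cannot be told apart. As shares, 96 members had their highest mean of all 5 groups at 6h. Per fly count, 30 members had, and the other 70 were highest in L. Of D, 1h, 6h and 24h alone, all 100 means were highest at 6h per fly count, against 6.06% of the 12305 genes. Without 6h replicate 4 that count was 91, the lowest when 1 library was left out. The members were chosen for height at 6h in these same libraries, so that count is a description and no separate check. The fall to 24h was smaller per fly count, with a median log2 ratio of −0.48 against −1.28 for shares. With L replicates 4 and 5 left out, 50 members were highest at 6h of all 5 groups per fly count.

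**Figure D4:**
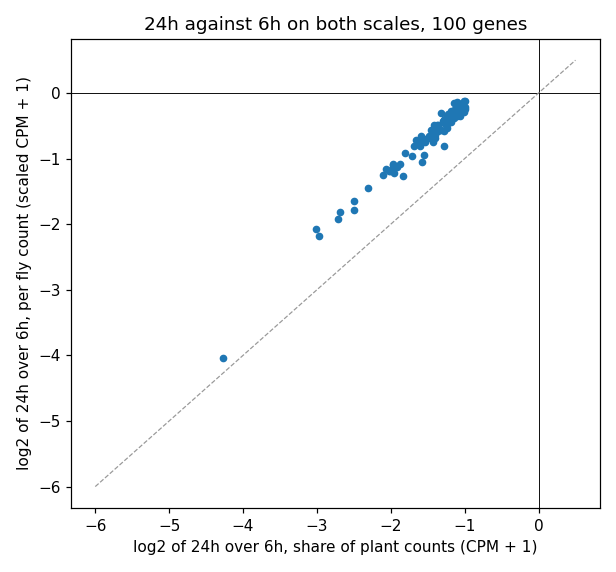
Each point is 1 of the 100 members, with log2 of the 24h mean over the 6h mean as a share of plant counts on the horizontal axis and per fly count on the vertical axis, 1 CPM added on both. All points lie below 0 on both axes and above the dashed line of equality, the medians being −1.28 and −0.48, and the point at the lower left is AT1G07487.

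The levels of 1h, 24h and L were also set against D in 1 edgeR fit of all 25 libraries. The rule that chose the members uses the D, 1h and 24h means, so the counts and fold changes of members in these comparisons are descriptions beside the share of all genes, no p is given, and nothing is read from them about the members. The fit held 99 members, all but AT1G07487. At 1h 11 members passed the threshold as higher than D, against 3.06% of all genes tested, and AT3G15570 passed as lower, against 0.994%. With TMM the counts were 20 against 8.94% and 2 against 5.21%. The median log2 change was 0.39 for the members and 0.03 for all genes. The count of 11 was 6 without D replicate 1, without D replicate 2 or without 1h replicate 2, and 7 without 1h replicate 4.

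The 11 members that passed as higher at 1h are named here as a description. The leucine-rich repeat gene AT4G16880 had 3.57, 4.11, 2.83, 5.03 and 2.56 CPM in 1h and 0 to 0.221 CPM in D, where the 5 libraries held 11 counts in all, and its log2 change per fly count was 4.89 ± 0.758 (SE). That of ELIP1 was 4.51 ± 0.823, or 5.54 without D replicate 5. That of AIF1 was 3.90 ± 0.49, and that of MSRB6 3.47 ± 0.672, or 2.85 without 1h replicate 2. The others were RbcX1, AT4G15630, AT2G23910, GA2OX8, the membrane-trafficking protein PATL2, CHIL and 4CL3. AT2G23910 had 60.2 CPM in replicate 4 of 1h and 4.9 to 15.1 CPM in the other 4 libraries. It did not pass with the replicate block, with which CEP3 and AGP15 passed. AT3G15570, an NPH3-family protein, had 3.02, 6.41, 10.5, 17.9 and 14.4 CPM in D and 0.412, 0.823, 1.33, 2.93 and 1.34 CPM in 1h. Its log2 change was −3.12 ± 0.699 (SE), or −3.79 without 1h replicate 4, and it stood at 13.5 to 31.9 CPM in 6h.

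At 24 h, 90 members passed as higher than D per fly count, against 50.3% of all genes tested, and none as lower, against 3.76%. With TMM 68 passed as higher, against 27%, and none as lower, against 27.8%. The median log2 change was 2.48 for the members and 1.19 for all genes, and with TMM 1.30 and −0.04. Per fly count the log2 change of MSRB6 was 9.0 ± 0.856 (SE), that of AT4G16880 8.89 ± 0.846, that of AT5MAT 8.07 ± 0.896 and that of ELIP1 5.91 ± 0.88. AT5MAT had 7 counts in D in all. Its value was 7.19 without 24h replicate 5 and 9.03 without D replicate 5, and that of ELIP1 was 6.93 without D replicate 5.

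Of the 9 members that did not pass at 24h, C/VIF2, an inhibitor of invertases, had a log2 change of 0.27 ± 0.573 (SE) per fly count. That of GASA6 was 1.16 ± 0.71 and that of PAP1 1.42 ± 0.694. The other 6, AT3G05600, LTL1, GA3OX1, HTH, AT3G15570 and AT1G29418, passed with the replicate block. LTL1 is a lipase and HTH an oxidoreductase needed for the cuticle. As a share of plant counts, 14 members had a lower mean at 24h than in D.

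In long-day cotyledons 96 members passed as higher than D per fly count, against 84.9% of all genes tested, and none as lower, against 1.96%. With TMM 67 passed as higher, against 28.6%, and 3 as lower, AT3G05600, C/VIF2 and AT3G57160, against 28.1%. With L replicates 4 and 5 left out, 91 passed as higher and 1 as lower per fly count. The log2 change of MSRB6 was 10.77 ± 0.915 (SE), that of AT4G16880 10.77 ± 0.897, that of the methionine synthase MS2 8.05 ± 0.843 and that of RbcX1 7.07 ± 0.816. The value of RbcX1 was 5.43 without L replicate 5.

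As shares, the members were mostly lower in L than at 6h. The mean in L exceeded that at 6h for 4 members, MS2, CYP71B26, FLS1 and AOP1, against 32.3% of the 12305 genes. The members were chosen for a high 6h mean, which favours lower values in L, so these counts and ratios are descriptions. CYP71B26 had a mean of 7.91 CPM at 6h and reached the floor of 10 CPM only through L, so its order was fixed by the choice. The median log2 ratio of L to 6h was −1.64. L was below 24h for 60 members and below D for 30. The lowest ratios, in log2, were those of AT1G07487 at −4.28, C/VIF2 at −4.21, AGP7 at −4.06, AT3G05600 at −3.90 and CEP3 at −3.67.

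The order of L and 6h depended on which L libraries were read. MS2 had 825, 710, 676, 139 and 37.8 CPM in replicates 1 to 5 of L and 79.4 to 102 CPM at 6h. FLS1 had 228, 248, 216, 17 and 7.99 CPM in L, and 4CL3 116, 138, 119, 10.9 and 2.34 CPM. In these genes replicates 1 to 3 of L were above all libraries of 6h and replicate 5 was below all of them. GASA6 had 50.2, 44.4, 75.0, 1190 and 1050 CPM in L, the opposite order. With L replicates 1 to 3 alone, 9 members had a higher mean in L than at 6h, and with replicates 4 and 5 alone 3 had, AT2G03310, CYP71B26 and AT3G15570. The labels name no difference between these libraries, and the cause was not tested.

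**Figure D5:**
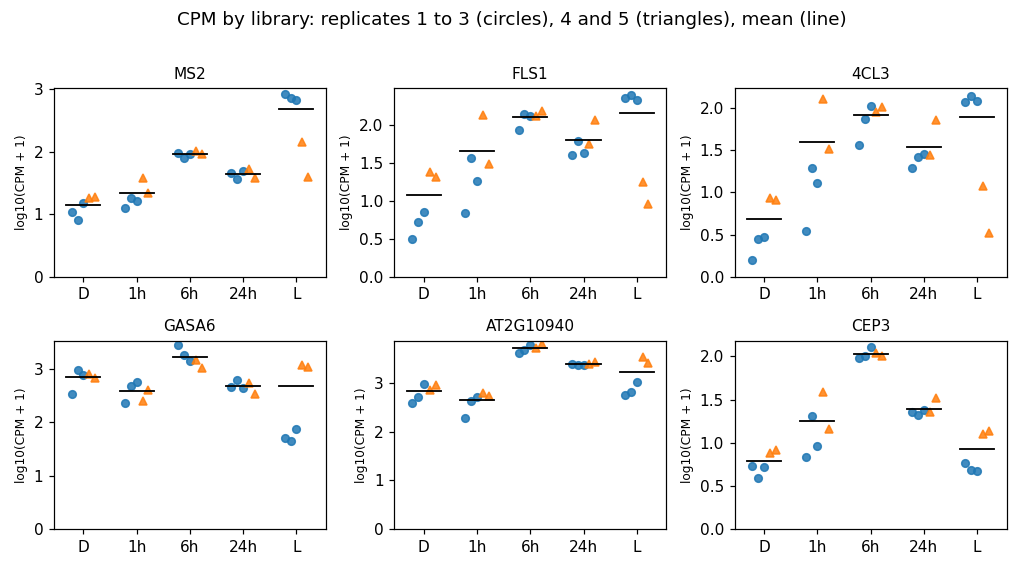
Each panel shows 1 gene, with log10(CPM + 1) on the vertical axis and the groups on the horizontal axis; circles are replicates 1 to 3, triangles replicates 4 and 5, and the line is log10 of the group mean plus 1. In L the triangles of MS2, FLS1 and 4CL3 lie below the circles, and those of GASA6, AT2G10940 and CEP3 lie above them.

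The labelled tissue could be checked against marker lists. Mesophyll markers summed to 26430 to 126800 CPM in every library. Shoot meristem markers summed to at most 20.3 CPM and seed storage markers to at most 2.28 CPM. A list of 5 root markers summed to 454 to 2322 CPM, with 454 to 682 CPM at 6h, and 1 of them, PYK10, reached 10 CPM in any group, with means of 1772 CPM in D and 579 at 6h. The list's part in the results was not tested. A stomatal marker list summed to 52.8 to 84.6 CPM at 6h and 21.7 to 52.9 CPM in D. It summed to 30.45 to 63.5 CPM in 1h, 53.0 to 65.0 in 24h and 27.5 to 44.65 in L. Vascular markers summed to 56.4 to 119 CPM.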

How the data were processed

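The authors deposited whole-number counts per gene of both species for the 25 libraries. Salmon 1.9.0, HTSeq, R 4.3.2 and the TAIR10 build appear, in no order, in the submitters' processing notes. Whether the counts are rounded estimates, and the strand setting, are not stated there. Entries that name no gene (0.119% to 0.741% of counts) were left out, and entries joining identifiers (1.00% to 1.77%) were tested but assigned to no gene. Names, positions and sequences came from RefSeq TAIR10.1, which held all 12305 genes. It was used for names and for its own coordinates, as the files hold none.

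CPM and the peak value were computed as given in the report. Fold changes came from edgeR 4.0.16 in R 4.3.3 (glmQLFit, glmQLFTest), with library sizes set from summed Drosophila counts, in 1 fit of 25 libraries after filterByExpr (minimum count 10, minimum total 15 on plant counts). This left 20615 nuclear and organelle entries, with prior degrees of freedom of 16.3 and a common biological coefficient of variation of 0.565. The fits were tested on simulated data. Calls were made at 0.05 after Benjamini-Hochberg adjustment over all genes tested. Alternatives were TMM, DESeq2 1.42.0 with fly or median-ratio size factors, no filter, only the groups compared, a replicate block, leaving out libraries, and other forms of the rule. No 2 libraries of a group agreed within counting noise.

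Same-numbered libraries deviated from their group means together in 1h and D (correlation over genes 0.536 to 0.741), 6h and 1h (0.336 to 0.673) and 24h and 6h (0.36 to 0.604). There the same number gave the highest correlation of the 5 numbers in 5 of 5 cases. For 24h and D (0.307 to 0.533) and for 6h and D (0.271 to 0.584) it did so in 3 of 5. These groups were taken as paired because every correlation exceeded 0.1. L and D (−0.0525 to 0.239) were not paired.

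The members, the lists and the tests were chosen with earlier results of these data known. Genes named are the 10 highest peak values, the 3 just inside and outside the threshold, the 5 highest levels at 6h, up to 4 called members per direction and comparison, up to 4 per list or family with 2 or more members, and the 5 highest and lowest ratios of L to 6h. Others, among them the thioredoxin run, the ER chaperones and the replication genes with windows, were chosen after their values were seen. At 5 libraries a group, precision is limited by the spread between them more than by counting.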

Additional observations from a re-analysis of the deposited data

Results flagged for a closer look

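The lowest or highest library of a group was set against the other 4 for 32 of the members whose libraries are discussed. AT2G23910 was not among them. Dixon's test was used at its 95% critical value of 0.71, which chance passes in about 1 group in 20. Of 160 groups, 24 held such a library. The genes share their libraries, so these are not independent. Some of the genes were discussed because 1 library stood out, so the count cannot be set against the rate by chance.

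In the 1h group replicate 4 was far above the others for PAP8 (79.4 CPM), AT4G27560 (4.55), GA3OX1 (11.6), FLS1 (136) and 4CL3 (127), and replicate 1 for AT5G07095 (30.8) and AT1G29418 (38.6). In the 24h group replicate 5 was far above for CEP3 (32.2 CPM), GA3OX1 (11.6), AT5MAT (19.9), FLS1 (116) and 4CL3 (70.8). In the 6h group a single high library was found for AT1G07487 (91.9 CPM, replicate 2), AT5G07095 (246, replicate 1) and AT5G00590 (607, replicate 1), and a single low one for AT5MAT (6.31, replicate 1). In L the high libraries were replicate 5 for RbcX1 (117 CPM) and AT4G16880 (69.9), replicate 4 for PAP8 (80.6), replicate 3 for AT5MAT (2.48) and replicate 1 for AT1G29418 (12). In D they were replicate 1 for AT5G07095 (36.4 CPM), replicate 5 for AT5MAT (0.221) and replicate 2 for AT5G00590 (65.9).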

How the results depend on the processing

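For 1h against D, 20 members were higher with TMM, 21 with DESeq2 and median-ratio size factors and 29 in replicates 1 and 2 alone, and 2, 2 and 0 were lower. For L against D, 3 were lower with TMM and 3 with median-ratio DESeq2, and 1 with L replicates 4 and 5 left out. For 24h below 6h in held-out replicates 3 to 5 the count was 27 with TMM, 39 with median-ratio DESeq2 and 6 with the replicate block. In replicates 1 and 2 it was 37, 50 and 6, and 2 with DESeq2 and fly size factors or with only the groups compared. For 6h above 1h in replicates 1 and 2 it was 91 with TMM, 93 with median-ratio DESeq2, 5 with only the groups compared and 94 with the block. The rule kept 53 of 100 members with a floor of 50 CPM, 36 with fly scaling, 63 in replicates 1 and 2 alone and 84 with 1h replicate 4 and 24h replicate 5 left out. Highest at 6h of all 5 groups were 92 members with TMM in place of fly scaling, and 50 per fly count with L replicates 4 and 5 left out. For held-out replicate 3 the count per fly count was 27. The causes were not tested.

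Leaving out 1 library gave 6 to 13 members higher and 1 to 2 lower in 1h, 82 to 93 higher at 24h, 94 to 97 higher in L, 41 to 91 genes above 1h, 47 to 73 above D and 1 to 3 below 6h in replicates 3 to 5, 81 to 88 shared members, and 26 to 41 highest at 6h of all 5 groups. Of D, 1h, 6h and 24h alone, 91 to 100 members were then highest at 6h per fly count. The log2 change of AT3G15570 in 1h was −1.78 in replicates 1 and 2 alone and did not pass there. The block changed the other counts of members by less than 1.5 times, to 12 and 1 in 1h, 96 at 24h and 98 in L. Settings with fewer libraries were chosen after seeing the data where they leave out more than 1. Levels under 1 CPM in D limit the fold changes of AT4G16880 and AT5MAT.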
